A study of Homo sapiens with 6 samples.

Results

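Eph receptors and ephrins are cell-surface proteins that let touching cells attract or repel each other, and 10 of their genes are described here across 3 states of one colon cancer line. They are 6 receptor genes, EPHA1, EPHA2, EPHA4, EPHB2, EPHB3 and EPHB4, and 4 ligand genes, EFNA1, EFNA3, EFNB1 and EFNB2. Each was taken by its exact symbol from a table of 31628 genes, in which 11 entries carry one of these symbols. EFNA3 has 2 entries, of which ENSG00000251246.1 was listed at 0 in all 6 libraries and ENSG00000143590.9 is the one described. All cells were HCT116, an established human colon cancer line, in which ENL carried an auxin-inducible degron (AID) and the plant F-box protein AtAFB2 was stably expressed, so the control cells bore both changes too. ENL, encoded by MLLT1, reads acetylated histones. The auxin indole-3-acetic acid (IAA) makes AtAFB2 bring a degron-tagged protein to the proteasome. The 3 groups of 2 libraries each were control without IAA, IAA for 3 h (the dose is given as 500 um), and washout, in which IAA was rinsed off with PBS and the cells grew on in plain medium for 48 h. AID clones were selected with puromycin and blasticidin, and the sources do not say whether 1 clone or several were used.

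The Eph family is the largest family of receptor tyrosine kinases. EphA receptors mainly bind ephrin-A ligands, which a lipid (GPI) anchor holds in the membrane, and EphB receptors mainly bind ephrin-B ligands, which span it. Contact between cells starts forward signalling in the cell with the receptor and reverse signalling in the cell with the ligand. In the intestine, EphB2 and EphB3 are targets of WNT signalling and hold progenitor cells low in the crypt, away from ephrin-B-bearing cells higher up.

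The library totals recovered from the deposited FPKM (reads per kilobase, scaled to library depth) were similar, from 16442840 to 16770850 reads each. Recovered reads summed to 103.8% to 104.2% of these totals, so the totals are the divisors of the FPKM rather than exact depths. These FPKM divide by the whole gene span, introns included, so an FPKM is compared here only within a gene. Values of all tested genes correlated at 0.998 to 0.9981 (Pearson's r across genes, which are not replicates) within groups and at 0.9934 to 0.9978 between groups. What a replicate stands for is not given, so p-values measure only the spread between these samples, which may be technical. For each gene, limma took that spread mostly from other genes with similar reads (23.4 prior against 3 residual degrees of freedom). The transcript of the tagged gene, MLLT1, measured 0.412 and 0.427 FPKM in control, 0.404 and 0.358 in IAA and 0.413 and 0.384 in washout (adjusted p = 0.324 for IAA against control); the degron acts on the protein, so the transcript does not check it. The aryl hydrocarbon receptor target CYP1A1 measured 0.595 and 0.491 FPKM in control, 25.7 and 28.5 in IAA and 0.572 and 0.505 in washout, 49.8-fold higher in IAA than in control. CYP1B1, a target of the same receptor, was 20.6-fold higher in IAA than in control. Cells without the degron given IAA were not analysed here, so loss of ENL and IAA itself cannot be told apart. Cells kept 48 h longer without IAA were not analysed either, so recovery and time in culture cannot be told apart. Among 8 colon epithelial markers the summed FPKM was 341 to 351 in control, 273 to 278 in IAA and 329 to 345 in washout. Such sums over genes, here and for fibroblast markers below, give more weight to reads of genes with a short span. They do not show how each marker changed. Under IAA 6 of these 8 markers were called (limma; 26.8% of all tested genes were): the keratins KRT8, KRT18 and KRT19 and the adhesion protein EPCAM fell, and VIL1 and CDX2 rose. The count was 3, all lower, without IAA replicate 2 or with pseudocount 1, and 4 without control replicate 1; with 1 library left out the adjusted p reached 0.292 for EPCAM, 0.238 for VIL1 and 0.224 for CDX2. The part of these markers in the results below was not tested. Markers of blood never exceeded 5 reads and those of endothelium 21 reads, and of the blood markers 1 was at 0 in every library. The 6 fibroblast markers summed to 0.523 to 0.545 FPKM in control, 0.618 to 0.774 in IAA and 0.727 to 0.756 in washout. Of these COL1A1 gave 160 and 158 reads in control, 230 and 185 in IAA and 228 and 216 in washout (adjusted p = 0.0535 for IAA and 0.164 for washout, each against control), and the other 5 never exceeded 7 reads. The part of COL1A1 in the results was not tested.

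To compare levels between genes, reads were scaled to library depth and divided by the kilobases of merged exon. On this scale EPHA2, a receptor of epithelial cells that binds ephrin-A1, was the most abundant Eph transcript, at 111 ± 7.57 (SD over the 6 libraries), and made up 73% to 75.5% of the summed level of all 14 receptor genes in each library. EFNB2, the ephrin-B ligand of EPHB4, followed at 25.7 ± 1.61. EPHB4 stood at 13.9 ± 0.99 and EPHA1, the founding member of the family, at 13.0 ± 0.951. EFNB1 stood at 10.0 ± 1.21. The ranges over the libraries overlapped between EPHB4 (12.5 to 14.7) and EPHA1 (11.4 to 13.9), and between EPHA1 and EFNB1 (8.28 to 11.7). EFNA1, a GPI-anchored ligand of EPHA2, stood at 6.64 ± 0.558. EFNA3 at 3.0 ± 0.278 and EPHB2 at 2.91 ± 0.207 did not differ beyond their spread. EPHB3 averaged 1.83 ± 0.791 and EPHA4, which binds ligands of both classes, 0.803 ± 0.232. EPHB3 had the widest relative spread, with 1.43 on average in control, 2.82 in IAA and 1.24 in washout. In the IAA libraries (3.06 and 2.58) it thus came close to EPHB2 (3.25 and 2.99). This closeness and the class sums below rest on merged exon lengths, which count every annotated exon (12516 bases in EPHB2 and 4532 in EPHB3). The EFNA3 level per exon length is uncertain, since the deposited values fit a longer model of this gene than the annotation used here.

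**Figure D1:**
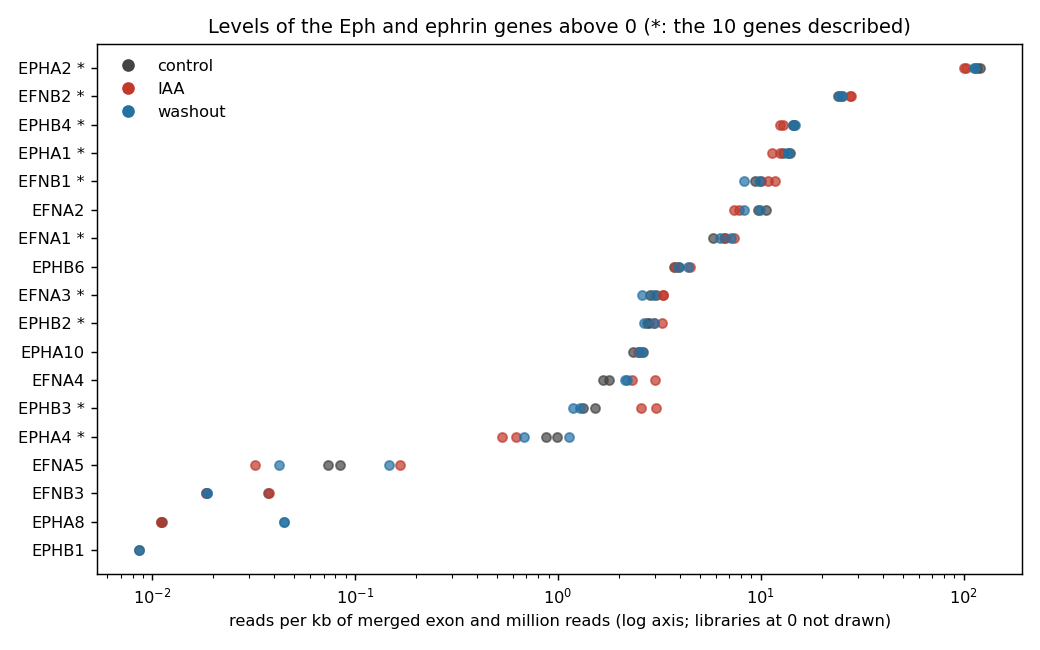
Level of each Eph receptor and ephrin gene, as depth-scaled reads per kilobase of merged exon on a log axis; each point is 1 library, coloured by group, and stars mark the 10 genes described. EPHA2 lies near 111, EPHA4 near 0.803, and the 2 IAA points of EPHB3 (3.06 and 2.58) stand clear of its other 4 (1.19 to 1.53).

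Summed by class, the 5 EphB receptor genes lay between 22.5 and 22.9 on this scale in every library, while their makeup shifted. EPHB3 gave 5.91% and 6.73% of the EphB sum in control, 13.6% and 11.3% in IAA and 5.25% and 5.61% in washout. EPHB4 gave 65.2% and 63.5% in control, 55.4% and 55.9% in IAA and 63.6% and 64.2% in washout. The 9 EphA receptor genes summed to 133 and 137 in control, 119 and 115 in IAA and 130 and 131 in washout, with EPHA2 at 86.8% to 88% of it. The 3 ephrin-B genes summed to 33.5 and 35.2 in control, 38.9 and 39.2 in IAA and 34.9 and 32.7 in washout. Both IAA libraries were thus lowest for EphA receptors and highest for ephrin-B ligands, while the 5 ephrin-A genes summed to 19.8 to 21.9 with overlapping groups. The makeup of the ephrin-A sum shifted as well. EFNA2, an ephrin-A gene outside the described set, led this sum in every library. It gave 50.4% and 45.7% in control, 39% and 34.9% in IAA and 45.2% and 41.9% in washout. No test was made on these sums or shares.

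Under 3 h of IAA, 5 of the 10 genes changed at an adjusted p under 0.05 (limma on log2(FPKM + 0.01), adjusted over all 12829 genes with a mean of at least 50 reads). EPHB3 and EFNB2 rose, and EPHA2, EPHB4 and EPHA4 fell. The share of 50% stands beside 26.8% of all genes tested. Voom on the recovered reads also called 5, beside 27.5% of all genes. With the variance trend on mean log values the count was 3, beside 2182 of all 12829 genes. It also fell when 1 control or 1 IAA library was left out, and so did the count over all genes. The 10 genes were chosen with earlier results of these data known, so these shares do not test the set. By direction, 15.1% of all genes were called higher and 11.7% lower. The 2 groups did not overlap for 9 of the 10 genes, 5 with IAA above and 4 with IAA below; over all genes those shares were 35.9% and 25.9%. The median log2 difference of the 10 genes was 0.157 against 0.032 over all genes, and the median absolute difference 0.184 against 0.135. Calls over all genes were 56.4% higher in IAA as deposited, but 45% with TPM and 46.3% with median-of-ratios scaling, and none of the 10 genes changed direction with the scaling. TPM here means the deposited FPKM rescaled to the same sum in each library, so it too divides by gene span. In bulk samples, fewer cells with a transcript and less of it per cell cannot be told apart.

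**Figure D2:**
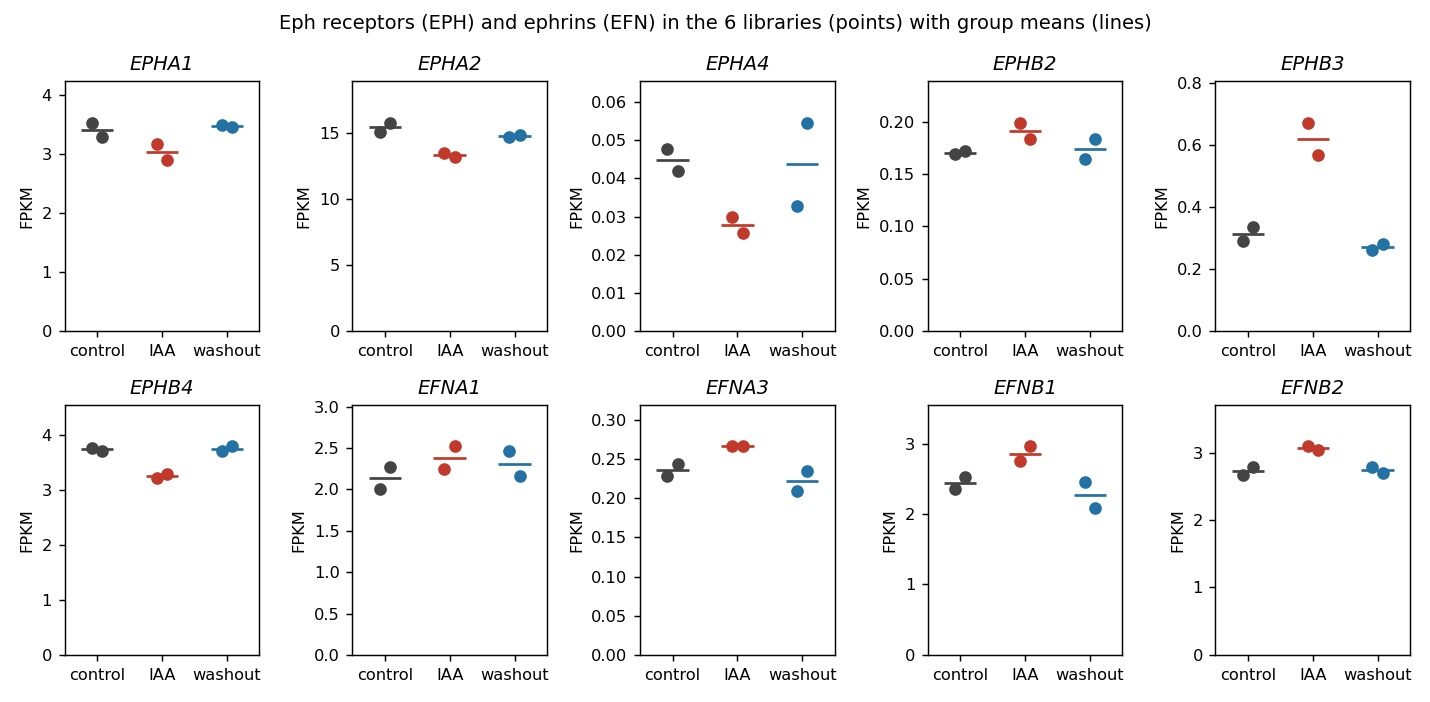
FPKM of the 10 genes in each library, 1 panel a gene, with control, IAA and washout along the x axis; points are libraries and lines are group means (n = 2). EPHB3 is at 0.672 and 0.567 in IAA and at 0.335 or less in the other 4 libraries, and EPHA2 and EPHB4 are lowest in the 2 IAA libraries.

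EPHB3 changed most among the 10. It measured 0.292 and 0.335 FPKM in control (100 and 116 reads), 0.672 and 0.567 in IAA (228 and 196 reads) and 0.261 and 0.282 in washout (90 and 97 reads). Both IAA libraries lay above the other 4. The mean was 1.97-fold higher in IAA than in control (log2 difference 0.96, SE 0.16, 95% interval 0.62 to 1.29, adjusted p = 6.04e-05), and 0.928% of tested genes had a larger absolute change. The call held under all 16 alternative settings that tested it. In this and later tallies for IAA against control, leaving out either washout library gives the same fit as only the 2 groups compared. These settings are therefore not separate checks.

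EPHB2, which acts beside EPHB3 in the crypt, measured 0.169 and 0.172 FPKM in control, 0.199 and 0.183 in IAA and 0.164 and 0.183 in washout. Its log2 difference between IAA and control was 0.15 (SE 0.09, 95% interval -0.02 to 0.33, adjusted p = 0.201) and did not pass the test. A difference between EPHB2 and EPHB3 in their response was not tested. EPHB4, the receptor of ephrin-B2 known best from blood vessels, measured 3.78 and 3.72 FPKM in control, 3.23 and 3.30 in IAA and 3.71 and 3.80 in washout. Both IAA libraries lay below the other 4, and the mean fell to 0.871 of control (log2 difference -0.20, SE 0.06, adjusted p = 0.011). Without control replicate 1 or IAA replicate 1 the adjusted p of EPHB4 was 0.0759 and 0.0768, the latter the highest over 17 settings, of which the lowest was 0.00379.

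Among the EphA receptors, EPHA2 measured 15.1 and 15.8 FPKM in control, 13.5 and 13.2 in IAA and 14.7 and 14.9 in washout, on 7044 to 8403 reads a library. The IAA mean fell to 0.864 of control (log2 difference -0.21, SE 0.04, 95% interval -0.29 to -0.13, adjusted p = 0.000151), and all 17 alternative settings kept the call. EPHA1 measured 3.53 and 3.28 FPKM in control, 3.17 and 2.90 in IAA and 3.49 and 3.45 in washout. Its IAA libraries lay below control, but the log2 difference of -0.17 (SE 0.07, 95% interval -0.31 to -0.02) had an adjusted p of 0.0803; with TPM scaling it was 0.0379 and with median-of-ratios scaling 0.0367, within a range of 0.0367 to 0.446 over the alternatives. EPHA4 measured 0.0478 and 0.0420 FPKM in control (124 and 110 reads), 0.0300 and 0.0256 in IAA (77 and 67 reads) and 0.0329 and 0.0546 in washout (86 and 142 reads). The mean FPKM fell to 0.619 of control, a log2(FPKM + 0.01) difference of -0.54 (SE 0.20, 95% interval -0.95 to -0.13, adjusted p = 0.0449). The pseudocount understates the change of so low a value; voom on the recovered reads gave -0.69 with an adjusted p of 0.0231. The EPHA4 call held in only 6 of 16 settings (adjusted p 0.0167 to 0.486). Left-out libraries gave 0.216 without control replicate 1, 0.0979 without control replicate 2, 0.0626 without IAA replicate 1 and 0.191 without IAA replicate 2, and the replicate block gave 0.0549.

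Among the ligands, EFNB2 measured 2.66 and 2.79 FPKM in control, 3.09 and 3.03 in IAA and 2.78 and 2.70 in washout. Both IAA libraries lay above the other 4, and the mean rose 1.12-fold over control (log2 difference 0.17, SE 0.05, 95% interval 0.06 to 0.28, adjusted p = 0.0172). The EFNB2 call held in 10 of 17 settings (adjusted p 0.0141 to 0.155): TPM scaling gave 0.0703, median-of-ratios scaling 0.0502, and the fits without control replicate 1 and without IAA replicate 1 gave 0.155 and 0.104. EFNB1, which spans the membrane as EFNB2 does, measured 2.36 and 2.52 FPKM in control, 2.75 and 2.96 in IAA and 2.46 and 2.09 in washout. Its IAA mean was 1.17-fold that of control (log2 difference 0.22, SE 0.09, 95% interval 0.03 to 0.42), with an adjusted p of 0.0805. The 2 GPI-anchored ligands did not pass. EFNA1 measured 2.00 and 2.27 FPKM in control, 2.25 and 2.52 in IAA and 2.46 and 2.16 in washout (log2 difference 0.16, 95% interval -0.10 to 0.41, adjusted p = 0.376), with overlapping groups. EFNA3 measured 0.228 and 0.243 FPKM in control, 0.266 in both IAA libraries and 0.209 and 0.235 in washout, on 83 to 106 reads a library (log2 difference 0.17, 95% interval -0.21 to 0.55, adjusted p = 0.553).

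**Figure D3:**
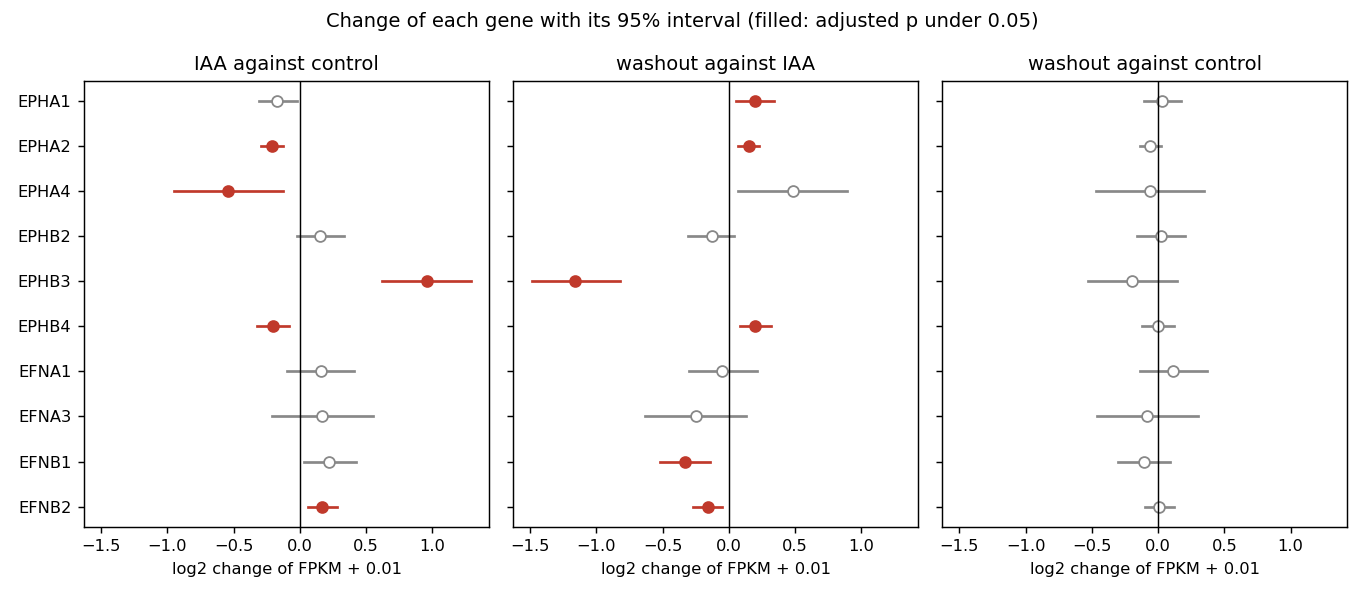
Log2 difference of each of the 10 genes with its 95% interval (limma, 2 libraries a group), in 1 panel for each of the 3 comparisons, with filled markers for an adjusted p under 0.05. EPHB3 is at 0.96 for IAA against control and at -1.16 for washout against IAA, and all 10 intervals of washout against control include 0.

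After the washout, 6 of the 10 genes differed from the IAA libraries, 3 higher (EPHA1, EPHA2 and EPHB4) and 3 lower (EPHB3, EFNB1 and EFNB2). That share of 60% stands beside 28% of all genes (13.1% higher and 14.9% lower); voom called 7, beside 28.8%. The washout and IAA libraries did not overlap for 9 genes, 4 with washout above (29% of all genes) and 5 with washout below (33.4%). This comparison shares its IAA libraries with the one above, so that opposite signs in the 2 are no independent support for each other. EPHB3 in washout was at 0.439 of its IAA mean (log2 difference -1.16, SE 0.16, 95% interval -1.49 to -0.82, adjusted p = 4.37e-06), called in all 16 settings, and 0.569% of genes had a larger absolute change. EPHA2 was 1.11-fold the IAA mean (log2 difference 0.15, SE 0.04, adjusted p = 0.00424) and was called in 14 of 17 settings. EPHB4 was 1.15-fold (log2 difference 0.20, SE 0.06, adjusted p = 0.00941), with 0.0685 without IAA replicate 1 and 0.0601 without washout replicate 2 in a range of 0.00266 to 0.0685. EPHA1 was 1.15-fold (log2 difference 0.20, SE 0.07, adjusted p = 0.0363). Only 8 of 17 settings kept the EPHA1 call (0.0127 to 0.302), which was lost without IAA replicate 2 (0.302), washout replicate 1 (0.122) or washout replicate 2 (0.0892).

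The ephrin-B genes were lower after the washout. EFNB1 in washout was at 0.796 of its IAA mean (log2 difference -0.33, SE 0.09, 95% interval -0.52 to -0.14, adjusted p = 0.00896), and 11 of 17 settings called it (0.0026 to 0.174), with 0.0848 without IAA replicate 2 and 0.174 without washout replicate 2. EFNB2 was at 0.895 (log2 difference -0.16, SE 0.05, adjusted p = 0.0237) and was called in 10 of 17 settings (0.0216 to 0.134). It was lost without IAA replicate 1 (0.129), IAA replicate 2 (0.0562) or washout replicate 2 (0.134), and with TPM scaling (0.11). For EPHA4 the 2 washout libraries differed most from each other, and the log2 difference of 0.48 (SE 0.20, 95% interval 0.07 to 0.89) had an adjusted p of 0.0723. TPM scaling (0.0293), voom (0.0464) and the fit without washout replicate 1 (0.0133) took the EPHA4 value past the threshold, in a range of 0.0133 to 0.625. EPHB2 (log2 difference -0.13, adjusted p = 0.275), EFNA1 (-0.05, 0.816) and EFNA3 (-0.25, 0.338) did not pass. Calls over all genes in this comparison were 46.9% higher as deposited, 60.5% with TPM and 51.6% with median-of-ratios scaling.

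Against control, 0 of the 10 genes were called in washout (limma; 0 at an unadjusted p under 0.05, and 0 and 0 with voom), where 0.475% of all genes were called (0.249% higher and 0.226% lower), and 0.818% with voom. Of these calls 52.5% were higher, or 61.4% with TPM and 37.9% with median-of-ratios scaling. The log2 difference was 0.00 for EPHB4 (95% interval -0.12 to 0.12), -0.06 for EPHA2 (-0.14 to 0.02) and 0.01 for EFNB2. It was 0.03 for EPHA1 (-0.11 to 0.17). For EPHB3 it was -0.20 (-0.53 to 0.14, adjusted p = 0.687), and for EPHA4 -0.06 (-0.47 to 0.35), the widest of these intervals. The 2 groups did not overlap for 2 of the 10 genes, EPHA2 and EPHB3, both lower in washout, where 17.2% of all genes stood apart in that direction and 24.5% in the other.

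**Figure D4:**
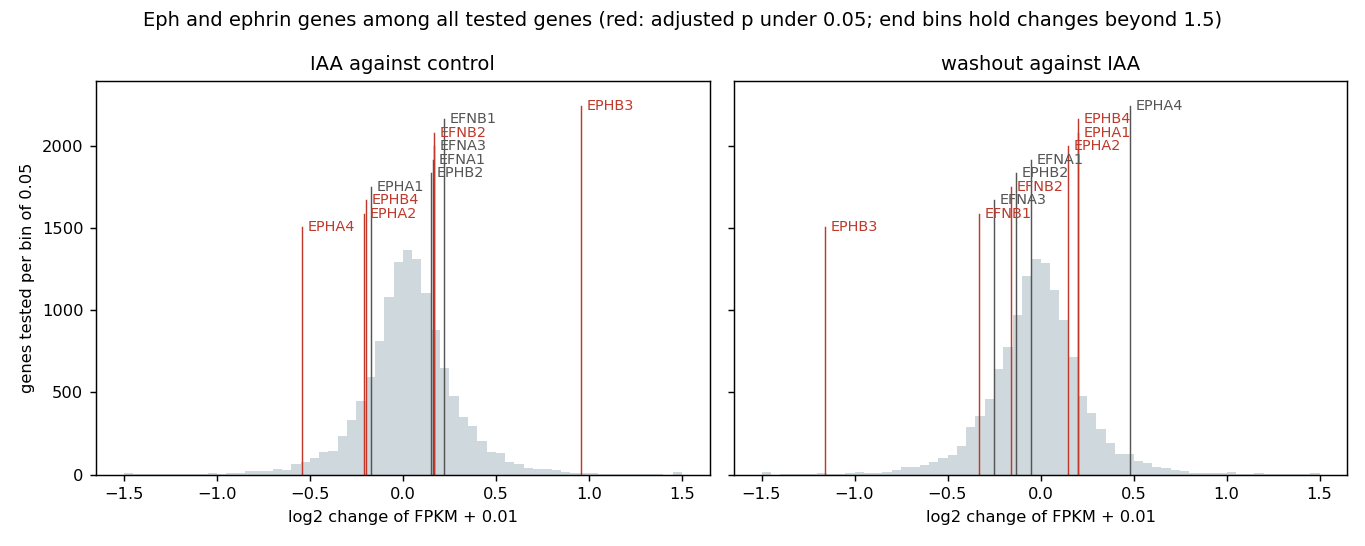
Histogram of the log2 difference of all 12829 tested genes for IAA against control and for washout against IAA, with the 10 genes marked by lines (red where the adjusted p was under 0.05); the end bins also hold changes beyond 1.5. EPHB3 lies far out at 0.96 and -1.16, EPHA4 at -0.54 and 0.48, and the other 8 lie within the bulk of genes, between -0.33 and 0.22.

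Of the 12 other Eph and ephrin genes, 3 had enough reads to be tested, and 0 were called under IAA (limma), beside 26.8% of all genes tested. With only 3 genes, this count cannot be compared with that of the 10. In limma 1 gene had an unadjusted p under 0.05, and voom gave 0 calls and 1 such gene. That gene was EFNA2, a GPI-anchored ligand, at 0.658 and 0.601 FPKM in control, 0.486 and 0.461 in IAA and 0.615 and 0.515 in washout (IAA against control log2 difference -0.40, SE 0.16, adjusted p = 0.0641). EFNA2 passed the threshold with median-of-ratios scaling (adjusted p = 0.0464). With pseudocount 0.1, and with the variance trend on mean log values, 1 of the 3 was also called lower. Its IAA libraries were the lowest of the 6, while EFNA1 and EFNA3 were not lower there. EPHA10 (adjusted p = 0.949) and EPHB6 (adjusted p = 0.547), receptors whose kinase domains are inactive, did not pass. EFNA4 had 35 and 38 reads in control, 48 and 64 in IAA and 46 and 45 in washout. With a filter of 10 reads its log2 difference under IAA was 0.60 (SE 0.24, adjusted p = 0.0862). EFNA5 had 3 to 16 reads, EPHA8 0 to 4, EFNB3 1 to 2 and EPHB1 0 to 1 in the 6 libraries, and EPHA3, EPHA5, EPHA6 and EPHA7 were listed at 0 in every library.

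Promoter sequence is shown for the 4 genes whose IAA calls held in 10 or more settings, to set the risers EPHB3 and EFNB2 beside the fallers EPHA2 and EPHB4. Each is the 250 bases before the start in RefSeq (GRCh38.p14), read 5′ to 3′ on the gene's strand. Capitals mark GCGTG, the core of the aryl hydrocarbon receptor element, or CACGC, the same letters on the other strand. The windows lie at chr3:184561535-184561784 on the plus strand for EPHB3 and, on the minus strand, at chr13:106535663-106535912 for EFNB2, chr1:16156070-16156319 for EPHA2 and chr7:100827524-100827773 for EPHB4.
EPHB3: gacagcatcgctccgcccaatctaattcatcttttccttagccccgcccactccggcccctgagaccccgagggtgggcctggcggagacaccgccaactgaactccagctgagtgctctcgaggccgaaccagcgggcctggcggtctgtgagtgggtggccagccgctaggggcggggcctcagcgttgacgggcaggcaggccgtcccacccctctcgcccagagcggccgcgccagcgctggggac
EFNB2: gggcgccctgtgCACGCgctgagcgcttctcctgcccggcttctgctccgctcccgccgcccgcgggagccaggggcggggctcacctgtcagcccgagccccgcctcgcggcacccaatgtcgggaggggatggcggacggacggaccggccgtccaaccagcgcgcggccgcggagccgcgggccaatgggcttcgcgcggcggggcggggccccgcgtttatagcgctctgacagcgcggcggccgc
EPHA2: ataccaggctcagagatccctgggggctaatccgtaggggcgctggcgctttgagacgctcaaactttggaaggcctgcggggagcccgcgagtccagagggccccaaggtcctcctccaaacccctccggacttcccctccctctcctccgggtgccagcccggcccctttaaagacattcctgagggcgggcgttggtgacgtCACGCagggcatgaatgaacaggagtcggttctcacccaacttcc
EPHB4: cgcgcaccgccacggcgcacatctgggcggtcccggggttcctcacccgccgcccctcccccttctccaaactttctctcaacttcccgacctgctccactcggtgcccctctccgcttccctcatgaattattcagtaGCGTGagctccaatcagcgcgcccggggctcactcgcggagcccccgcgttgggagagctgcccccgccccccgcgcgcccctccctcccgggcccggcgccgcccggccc
The EPHB3 window held no GCGTG on either strand, and the other 3 held 1 match each, 238 bases before the start in EFNB2, 45 in EPHA2 and 111 in EPHB4. The table gave 12 windows for the 10 genes, and 9 windows of 8 genes held the motif, where 32.2% of all 35116 windows did. EPHA1 and EPHB3 were the 2 genes without it. The 2 EPHB2 windows start at adjoining bases, so the same match was counted in both. The AP-1 motif TGANTCA (6.57% of all windows) and the E-box CACGTG (6.34%) were in none of the 12. Of the 12 windows 11 were above the median GC content of all windows (58%). GCGTG is itself rich in G and C, and the 32.2% was not matched for GC content. A match is only these letters in this window, and it was found beside genes that rose, fell and did not pass alike.

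The genes that act with these receptors were described by 2 lists. Of 47 signal transduction genes in the table (such as adaptors, Src and Abl kinases and exchange factors) 43 were tested; 4 rose and 4 fell under IAA, a share of 18.6% beside the 26.8% of all genes, with a median log2 difference of 0.007. Without control replicate 2 or without IAA replicate 2 the count was 5. The Abl kinase ABL2 fell from 1.14 ± 0.0405 to 0.879 ± 0.0184 FPKM (SD, n = 2; 0.771 of control, adjusted p = 4.61e-06) and was 1.26-fold higher in washout than in IAA (adjusted p = 2.37e-05). PIK3R1, a regulatory subunit of PI3-kinase, rose from 0.613 to 0.756 FPKM (1.23-fold, adjusted p = 0.00185), and the adaptor GRB2 from 2.03 to 2.32 (1.14-fold, adjusted p = 0.00218). MLLT4, the junction protein afadin, fell from 1.08 to 0.947 (adjusted p = 0.00548, and 0.0787 without control replicate 1). The kinase PAK1 rose 1.18-fold (adjusted p = 0.0117) and the exchange factor VAV2 fell to 0.861 of control (0.0275); without control replicate 2 these were 0.172 and 0.309. The other 2 called were the Src-family kinase FYN, which rose 1.3-fold (adjusted p = 0.0301, and 0.216 without IAA replicate 2), and the adaptor SHC1, which fell to 0.907 of control (0.0294, and 0.165 without IAA replicate 1).

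The second list held 16 genes of cleavage, turnover and dephosphorylation, 13 of them tested. Under IAA 4 were called, 3 of them lower (30.8% of those tested, near the 26.8% of all genes), with a median log2 difference of 0.019 against 0.032 over all genes. PTPN1, a phosphatase that acts on Eph receptors, fell from 3.47 ± 0.0527 to 2.90 ± 0.0259 FPKM (0.835 of control, adjusted p = 3.91e-05) and was 1.27-fold higher in washout than in IAA (adjusted p = 4.68e-07). The metalloprotease ADAM9 fell from 5.18 to 4.57 FPKM (adjusted p = 0.000667), and the receptor phosphatase PTPRJ from 0.176 to 0.145 (adjusted p = 0.0335, and 0.17 without control replicate 1). From IAA to washout 5 signal transduction genes rose and 2 fell (16.3% of those tested, beside 28% of all genes), and 3 cleavage and phosphatase genes were called, 2 of them higher (23.1%). Between washout and control 0 of either list were called (limma; 6 and 2 at an unadjusted p under 0.05, and with voom 0 called and 5 and 2).

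The tested genes whose profile over the 6 libraries lay nearest to that of EPHB3 were WNK4, ADM2, KLHL28, RNF223 and C1orf63, by Euclidean distance between centred log2 values (0.21, 0.228, 0.237, 0.24 and 0.243). WNK4, a kinase of ion transport, measured 0.355 and 0.429 FPKM in control, 0.823 and 0.77 in IAA and 0.309 and 0.395 in washout. KLHL28, which had 297 to 704 reads, measured 0.186 and 0.173 FPKM in control, 0.363 and 0.342 in IAA and 0.151 and 0.161 in washout. In both, as in EPHB3, the 2 IAA libraries lay above the other 4, which is what the measure selects.

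Reads of several of the 10 genes can overlap those of a neighbour, and the strand used in counting is not given. In GENCODE 29, exons of EFNB2 share 1313 bases with AL138689.2 on the opposite strand, those of EPHA4 353 bases with AC079834.2, those of EPHA1 82 bases with ZYX and those of EPHB4 69 bases with SLC12A9. EPHB2 shares 34 with the microRNA gene MIR4253. EFNA3 shares 853 exon bases with AL691442.1 on its own strand, which bears the ID of the second EFNA3 entry. EPHB3, on chromosome 3, and EPHA2, EFNA1 and EFNB1 share no exon bases with another gene.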

How the data were processed

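Polyadenylated RNA of 6 HCT116 libraries was sequenced. The FPKM were deposited by the authors for each gene and library. Per the submitters' processing notes, HISAT, Bowtie2, HTSeq and edgeR were used with hg19; the sources give no roles or versions. The deposited FPKM divide by gene span, which fits 81.6% of 4251 low genes. Whole reads were recovered from the steps between values for 99.84% of 21707 genes above 0 (tolerance 0.02 reads). The span fixed them for 16884 genes. Another 4203 were set to the whole-number solution nearest to the span, among them EFNB2, EPHB2, EPHB4 and EFNA3, and 585 to the smallest solution. Recovered reads summed to 103.8% to 104.2% of the library totals. Spans, exons and names came from GENCODE 29, which held 94.27% of the IDs, and promoters from RefSeq; coordinates are GRCh38, not the hg19 of the files, and served only for description.

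Groups follow the sample titles. Genes with a mean of at least 50 recovered reads (12829) went into limma (version 3.58.1, R version 4.3.3) as log2(FPKM + 0.01), with 1 mean per group over all 6 libraries (3 residual degrees of freedom), a variance trend on mean reads, two-sided tests and Benjamini-Hochberg adjustment over all tested genes; called means an adjusted p under 0.05. The variance of each gene was moderated toward this trend, with 23.4 prior degrees of freedom. With 2 libraries a group, precision is low. Reads are not independent molecules. The scripts were tested on simulated data.

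The genes and lists were chosen with earlier results of these data known. All 10 genes are named, from each pathway list up to 6 called genes with the smallest adjusted p under IAA, and the 5 profiles nearest to the gene that changed most; FYN and SHC1 were named after their values were seen. 1 called gene of the second list is not reported here. For each comparison 17 alternatives were tried (pseudocount, filter, scaling, voom, variance trend, samples fitted, left-out libraries, replicate block). Not all are distinct: leaving out either library of the group not compared gives the same fit as only the 2 groups compared. The tallies of settings count that fit more than once. AFDN and MLLT4, symbols of 1 gene, were counted once.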

Additional observations from a re-analysis of the deposited data

How the results depend on the processing

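Of the values of the 10 genes over all alternatives, 434 kept direction and side of the threshold, 46 lost a call, 5 gained one and 13 changed sign, none of the latter called. The number of the 10 genes called under IAA (5) was 3 with no filter, 3 with the trend on mean log values and 2 of 6 tested with a filter of FPKM 1 and pseudocount 1; leaving out 1 library gave 2 to 5, with 2 without control replicate 1 or IAA replicate 1. For washout against IAA (6) these were 2, 2 and 1, and 2 to 6 with a library left out (2 without washout replicate 2, 3 without IAA replicate 2). Over all genes, IAA against control (3432) gave 1990 with pseudocount 1, 1610 with no filter, 1092 with the FPKM filter, 2182 with the other trend and 2221 to 3587 with a library left out (2221 without control replicate 2). Washout against IAA (3592) gave 2146, 1691, 1196 and 2329 in that order, and 2601 to 3424 with a library left out. Washout against control (61) gave 0 with pseudocount 0.1 or 1, with the FPKM filter and with the other trend, 6 with a filter of 10 reads, 105 with voom, 101 with only the 2 groups fitted and 4 to 101 with a library left out (7 and 4 without control replicates 1 and 2, 101 without either IAA replicate, 33 without washout replicate 1). With the other trend the signal transduction list gave 2 calls under IAA and 3 in washout against IAA (8 and 7 as reported), and the cleavage and phosphatase list 2 and 1 (4 and 3); with pseudocount 1 the signal transduction list gave 3 in washout against IAA. In IAA against control and in washout against IAA, leaving out a library of either compared group also lowered the count over all genes. The counts of the 10 genes in those fits are to be read beside that fall. The cause of these shifts was not tested. In each comparison the highest count over all genes with a library left out came from leaving out the group not compared. That is the same fit as with only the 2 groups, so it does not test dependence on a library. Sign changes in washout against control were EFNB2 and EPHB4 with median-of-ratios scaling (-0.0072 and -0.0139) and, with a library left out, values of -0.225 to 0.0093 for EFNB1, -0.0233 to 0.043 for EFNB2, -0.022 to 0.0824 for EPHA1, -0.353 to 0.237 for EPHA4, -0.0558 to 0.0974 for EPHB2 and -0.0125 to 0.0189 for EPHB4. EFNA1 in washout against IAA ranged from -0.142 to 0.0443 in the same way.

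Same-numbered libraries showed no shared deviation: their deviations correlated at 0.02, -0.01 and 0 across genes. Whether the samples were paired by design is not known. With the replicate block, 3339, 3460 and 40 genes were called in IAA against control, washout against IAA and washout against control, and 4, 6 and 0 of the 10 genes; EPHA4 under IAA had an adjusted p of 0.0549.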
